A study of Mus musculus with 6 samples.

Results

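The 42 genes described here encode cyclins, cyclin-dependent kinases (CDKs), CDK inhibitors, E2F transcription factors, the replication machinery and the mitotic machinery. They were chosen by name from a list of cell cycle and DNA replication genes, and all 42 were found among the 54532 genes of the deposited count table. RNA was sequenced from 3 *Smyd1-KO* and 3 WT mouse hearts at E9.5, each library coming from an individual embryonic heart. *Smyd1* encodes a muscle-restricted lysine methyltransferase, and the knockout allele is a germline null that was carried by heterozygous mice, so every cell of a *Smyd1-KO* embryo lacked the functional gene. The labels give neither sex, strain nor litter, and list no treatment for either genotype. Whole hearts hold cardiomyocytes, endocardium, epicardium and blood, and in such bulk samples fewer cells of a type and less RNA per cell cannot be told apart.

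A cell enters the cycle when D-type cyclins with CDK4 or CDK6 phosphorylate the retinoblastoma protein, which frees E2F factors to switch on cyclin E, the MCM helicase and the enzymes that supply deoxynucleotides. Cyclins A and B with CDK1 then drive mitosis, whose kinases, checkpoint proteins and motors are mostly transcribed late in the cycle. The CDK inhibitors p21, p27 and p57 and the unconventional cyclin G2 oppose this progression, and cardiomyocytes of the embryonic heart divide at this stage.

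Of the 42 cell cycle genes, 4 changed in *Smyd1-KO* hearts. *Ccng2*, encoding the growth-inhibitory cyclin G2, and *Cdkn1b*, encoding the CDK inhibitor p27, were upregulated, while *Ccnd2* and *Ccne1*, encoding cyclins D2 and E1 of the entry into S phase, were downregulated. None of the genes of mitosis or of the A- and B-type cyclins was called by edgeR or DESeq2. As edgeR called 4.28% of all tested genes, having no call among these 14 is near that share. Of them, *Plk1* had an adjusted *P* of 0.0473 in edgeR, but its log2 fold change of −0.34 was too small for a call. For 12 of these 14 the 95% interval of the log2 fold change lay within ±0.5. A gene was called where the adjusted *P*-value of edgeR's quasi-likelihood test was under 0.05 and the log2 fold change was at least 0.5 in size, which is a 1.41-fold difference. By this rule 4.28% of the 19372 genes tested were called, 2.86% as higher and 1.42% as lower in *Smyd1-KO* hearts, beside 2 higher and 2 lower among the 42. DESeq2 called 2 of the 42 higher (5.98% of its tested genes) and 3 lower (3.31%), the additional gene being *Rrm2*, and edgeR with the replicate number as a block, which called 0.305% of all genes, called *Ccng2* alone. Without adjustment, 15 of the 42 had a *P*-value under 0.05 (35.7%, against 25.1% of all tested genes), 3 of them higher and 12 lower. In 14 of the 42 the hearts of the genotypes did not overlap (33.3%, against 31.3% of all tested genes), with 3 higher and 11 lower. Across the 42 genes, log2 fold changes spanned −0.98 to 1.57 around a median of −0.10, where the median of all tested genes was −0.0026. The 95% interval of the log2 fold change lay within ±0.5 for 24 of the 42 (57.1%), compared with 30.9% of all tested genes. The intervals of the 42 were also narrower, with a median half-width of 0.26 against 0.44 for all tested genes. The 2 shares therefore do not compare the sizes of change alone.

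**Figure D1:**
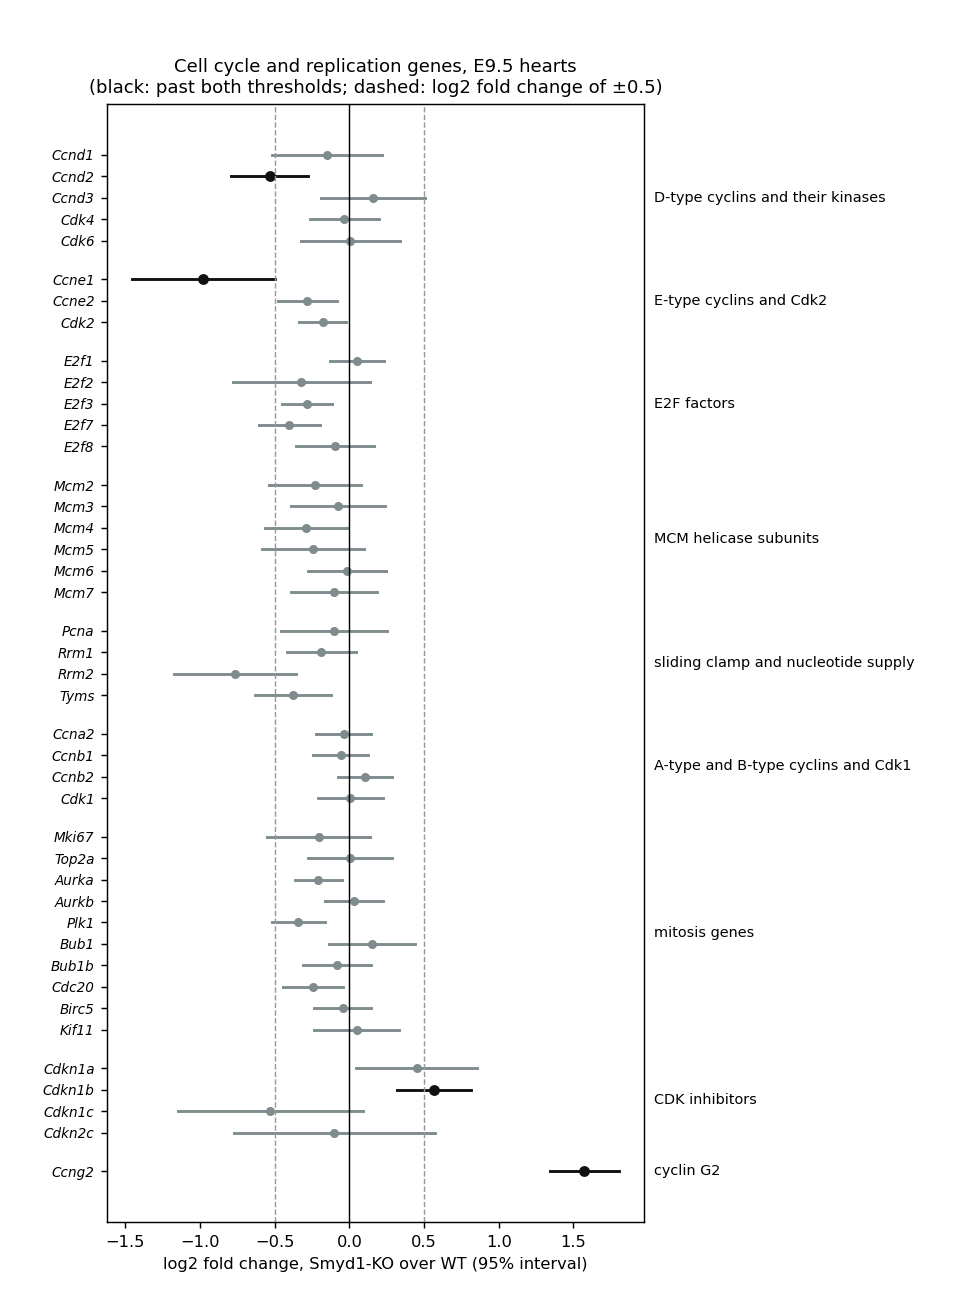
Log2 fold change of each of the 42 genes in *Smyd1-KO* over WT hearts (3 hearts each), with its 95% interval as a bar, grouped by role, with the 4 called genes in black and dashed lines at ±0.5. *Ccng2* stands alone at 1.57, *Ccne1* lies lowest at −0.98, and the A- and B-type cyclins and *Cdk1* lie between −0.058 and 0.11.

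The libraries held 48627825 to 64217529 counts assigned to genes, and the 42 genes took 0.720% to 0.811% of them in *Smyd1-KO* hearts and 0.842% to 0.901% in WT hearts. This separation depended on *Cdkn1c*. Without it, the summed CPM (counts divided by the effective library size) of the other 41 genes overlapped, at 6703 to 7756 in *Smyd1-KO* and 7617 to 8113 in WT hearts. *Smyd1* itself (chr6:71213940-71322233, mm10) was at 101, 222 and 206 CPM in the *Smyd1-KO* hearts, in the order of hearts 1, 2 and 3 that is kept for all values here, against 414, 379 and 269.8 CPM in the WT. The counts are summed over the whole gene and so include any exons outside the disrupted part. The level was lower in every *Smyd1-KO* heart without being absent, with a log2 fold change of −1.01 and an adjusted *P* of 0.0973 in edgeR and 0.00534 in DESeq2. *Smyd1-KO* heart 1 had the lowest summed CPM of 10 cardiomyocyte markers, at 8885, whereas hearts 2 and 3 had 18266 and 18394 and the WT hearts had 19818, 18621 and 11915. All 12 erythroid markers were lower in *Smyd1-KO* hearts, 4 of them called by edgeR (1.42% of all tested genes were called lower) and 9 by DESeq2 (3.31%), and their summed CPM was 28.7 to 286 in *Smyd1-KO* hearts and 757 to 1013 in WT hearts. The 6 epicardial markers summed to 141 to 266 CPM in *Smyd1-KO* and 106 to 129 CPM in WT hearts, and the 8 endothelial markers to 609 to 930 and 603 to 731 CPM. In edgeR no marker of either list was called, where 4.28% of all tested genes were. An unadjusted *P*-value under 0.05 was found for 2 of 6 epicardial and 4 of 8 endothelial markers, against 25.1% of all tested genes. DESeq2 called the epicardial markers *Wt1* and *Upk3b* higher and, among the endothelial markers, *Kdr* higher and *Nfatc1* and *Npr3* lower. Of its tested genes, DESeq2 called 5.98% higher and 3.31% lower. Only 2 of 6 leukocyte markers were abundant enough to be tested, and the 6 together summed to 2.49 to 3.78 CPM in *Smyd1-KO* and 3.56 to 4.56 CPM in WT hearts. The part of these cell types in the results that follow was not tested.

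Cyclin G2 is an unconventional cyclin that rises in cells leaving the cycle and slows proliferation when overproduced. *Ccng2* (ENSMUSG00000029385, chr5:93267257-93276231, mm10) was at 125, 149 and 131 CPM (*Smyd1-KO*) against 41.5, 47.5 and 47.2 CPM (WT). The lowest *Smyd1-KO* heart lay far above the highest WT heart, and the hearts within each genotype were close together. The mean was 135 ± 12.7 CPM for *Smyd1-KO* against 45.4 ± 3.38 CPM for WT (SD, *n* = 3), a 2.98-fold difference. Its log2 fold change was 1.57 ± 0.0993 (SE), with a 95% interval of 1.34 to 1.81 and an adjusted *P* of 0.000869 from edgeR. It ranked 14 of 19372 by *P*-value and 512 by the size of its fold change. It was called in all 6 fits that left out a heart and in the 7 other alternative fits, with adjusted *P*-values of at most 0.0252. Scaled by the summed length of its exons, it moved from 8.32 to 24.8 CPM per kb, a level in *Smyd1-KO* hearts that lay between those of *Ccnd1* and *Rrm1* in WT hearts.

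Of the 4 CDK inhibitor genes, *Cdkn1b* was called higher and the other 3 did not pass the test. p27, the product of *Cdkn1b*, binds cyclin E–CDK2 complexes and holds cells in G1. *Cdkn1b* (ENSMUSG00000003031, chr6:134920401-134925513, mm10) was at 76.8, 83.1 and 96.0 CPM (*Smyd1-KO*) against 53.4, 62.3 and 56.7 CPM (WT). All *Smyd1-KO* hearts lay above all WT hearts, with means of 85.3 ± 9.77 and 57.5 ± 4.52 CPM (SD, *n* = 3). Its log2 fold change was 0.57 ± 0.105 (95% interval 0.32 to 0.82, adjusted *P* = 0.0298 by edgeR), which is just past the fold limit. The call was kept without *Smyd1-KO* heart 1 (adjusted *P* = 0.0167) and lost without any other heart, where the adjusted *P* was 0.0698 to 0.111.

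*Cdkn1a*, encoding the p53-responsive inhibitor p21, was low in all hearts, at 11.1, 13.4 and 15.5 CPM (*Smyd1-KO*) against 10.4, 10.6 and 8.23 CPM (WT). The genotypes did not overlap, although *Smyd1-KO* heart 1 was close to the WT hearts, and the log2 fold change of 0.45 had an adjusted *P* of 0.161. *Cdkn1c*, an imprinted gene encoding p57, which is prominent in embryonic muscle, was the most abundant of the 42 per kb of exon in WT hearts. It was at 359, 617 and 656 CPM (*Smyd1-KO*) against 909, 878 and 571 CPM (WT), so WT heart 3 fell among the *Smyd1-KO* hearts. *Smyd1-KO* heart 1 and WT heart 3, which held the least *Cdkn1c* within their genotypes, also had the lowest cardiomyocyte marker sums within their genotypes, at 8885 and 11915 CPM, and the part of this in the value of *Cdkn1c* was not tested. Its log2 fold change of −0.53 carried an interval of −1.15 to 0.088 and an adjusted *P* of 0.261. *Cdkn2c*, encoding the CDK4 and CDK6 inhibitor p18, was barely expressed, at 1.46, 1.59 and 2.51 CPM (*Smyd1-KO*) against 2.30, 2.17 and 1.50 CPM (WT), and its groups overlapped.

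**Figure D2:**
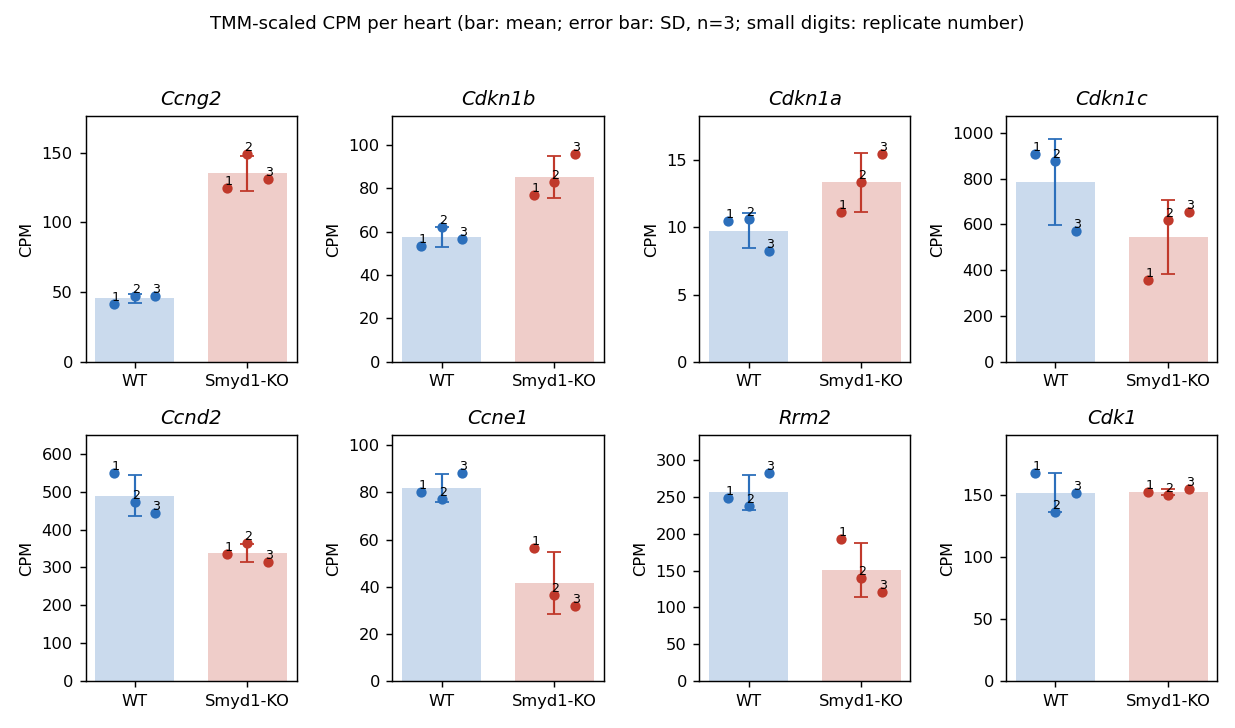
CPM of 8 genes in each of the 6 hearts, with points numbered by heart, bars at the mean and error bars of 1 SD (*n* = 3). *Ccng2*, *Cdkn1b* and *Cdkn1a* are higher and *Ccnd2*, *Ccne1* and *Rrm2* lower in all 3 *Smyd1-KO* hearts than in any WT heart, whereas *Cdkn1c* and *Cdk1* overlap. Of all tested genes 15.9% were higher and 15.5% lower in this way, and the genes drawn include the called ones.

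Among the D-type cyclins, which couple growth factor signals to the cycle, only cyclin D2 passed the test. *Ccnd2* (ENSMUSG00000000184, chr6:127125162-127152193, mm10) was at 336, 364 and 314 CPM (*Smyd1-KO*) against 550.4, 474 and 445 CPM (WT), and the groups did not overlap. With means of 338 ± 24.8 and 489.6 ± 54.5 CPM (SD, *n* = 3), its log2 fold change was −0.53 ± 0.111 (95% interval −0.79 to −0.28, adjusted *P* = 0.0401). Leaving out any of the 6 hearts ended the call, with adjusted *P*-values of 0.0535 (without *Smyd1-KO* heart 1) to 0.142 (without WT heart 2). The size of the decrease ranged only from −0.60 to −0.43 over these fits. *Ccnd1* was at 128, 88.9 and 83.7 CPM (*Smyd1-KO*) against 111, 111 and 111 CPM (WT). *Smyd1-KO* heart 1 lay above and hearts 2 and 3 below the narrow WT range, for a log2 fold change of −0.15 (adjusted *P* = 0.599). *Ccnd3* overlapped at 253, 319.7 and 354 against 312, 273 and 244 CPM, with a log2 fold change of 0.16 (interval −0.19 to 0.51). That the change of *Ccnd2* differed from those of *Ccnd1* and *Ccnd3* was not tested. Of their kinases, *Cdk4* had a log2 fold change of −0.036 (interval −0.27 to 0.19) and *Cdk6* stood at 36.1, 32.0 and 25.8 against 28.8, 30.0 and 34.7 CPM, a log2 fold change of 0.0051 (interval −0.33 to 0.34). In WT hearts *Cdk4*, at 176 CPM per kb, was far more abundant than *Cdk6*, at 2.23 CPM per kb. *Ccnd2*, at 52.0 CPM per kb, had the highest level of the D-type cyclins, followed by *Ccnd3* at 31.5 and *Ccnd1* at 23.6. Mean WT CPM, not scaled by length, kept this order, at 489.6, 276 and 111. The scaling uses all annotated exons, so the order per transcript is uncertain. *Ccnd3* and *Ccnd1* also share exonic bases with *Bysl* and *LTO1* on the opposite strand.

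All 3 genes of the cyclin E–CDK2 kinase, which fires replication origins, were lower in every *Smyd1-KO* heart than in any WT heart, as were 15.5% of all tested genes, and *Ccne1* was called. *Ccne1* (ENSMUSG00000002068, chr7:38097984-38107534, mm10) was at 56.6, 36.5 and 31.8 CPM (*Smyd1-KO*) against 80.3, 77.1 and 88.4 CPM (WT). *Smyd1-KO* heart 1 lay nearest to the WT hearts, and hearts 2 and 3 were lower still. Means were 41.6 ± 13.2 and 81.9 ± 5.80 CPM (SD, *n* = 3), a ratio of 0.508. The log2 fold change was −0.98 ± 0.205 (95% interval −1.46 to −0.50, adjusted *P* = 0.0418 by edgeR and 0.000216 by DESeq2), the largest decrease among the 42 genes. Without *Smyd1-KO* heart 1 it was −1.26 with an adjusted *P* of 0.00181, and without any other heart the call was lost, at adjusted *P*-values of 0.0834 to 0.140.

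The paralog *Ccne2* was at 35.7, 41.2 and 37.9 CPM (*Smyd1-KO*) against 45.4, 46.1 and 48.0 CPM (WT). Its log2 fold change was −0.28 ± 0.0841 with an adjusted *P* of 0.0971. *Ccne2* shares exonic bases with *Ints8* on the opposite strand, which held 198% of its counts, so its value is uncertain if reads were counted without regard to strand. *Cdk2*, the catalytic partner, stood at 81.4, 85.8 and 86.2 against 93.0, 96.9 and 97.0 CPM, a log2 fold change of −0.18 (adjusted *P* = 0.156). Summed over the 3 genes, the kinase reached 174, 163 and 156 CPM (*Smyd1-KO*) against 219, 220.1 and 233 CPM (WT).

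The E2F factors divide into activators (*E2f1*, *E2f2*, *E2f3*) and the atypical repressors (*E2f7*, *E2f8*), which are themselves E2F targets. None was called. *E2f7* came closest, at 50.8, 48.7 and 47.1 CPM (*Smyd1-KO*) against 58.2, 67.0 and 68.7 CPM (WT) without overlap. Its adjusted *P* of 0.045 was under 0.05, but the log2 fold change of −0.40 was under the limit. *E2f3* was also lower without overlap, with a log2 fold change of −0.29 ± 0.0706 and an adjusted *P* of 0.0632. *E2f1* stood at 49.8, 45.3 and 45.3 against 46.4, 45.6 and 43.6 CPM, and its interval of −0.13 to 0.23 lay within ±0.5. *E2f2* was at 15.3, 10.0 and 9.48 CPM (*Smyd1-KO*) against 14.3, 14.7 and 14.6 CPM (WT). Here *Smyd1-KO* heart 1 matched the WT hearts while hearts 2 and 3 were lower. The log2 fold change of *E2f2* was −0.32 with an adjusted *P* of 0.353, and it was called without *Smyd1-KO* heart 1, at −0.57 and 0.0404. *E2f8* overlapped, with a log2 fold change of −0.095.

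The MCM2–7 complex is the helicase that licenses origins and unwinds the fork. All 6 subunit genes had negative log2 fold changes, from −0.29 (*Mcm4*) to −0.019 (*Mcm6*), with a median of −0.17. None was called, where edgeR called 4.28% of all tested genes. In none did the hearts separate by genotype, as they did in 31.3% of all tested genes. *Mcm4* was at 209, 168 and 161 CPM (*Smyd1-KO*) against 208, 213 and 237 CPM (WT) (adjusted *P* = 0.19). *Mcm6* stood at 314, 278 and 242 against 281, 269.5 and 294 CPM, so that *Smyd1-KO* heart 1 was the highest of the 6 hearts and heart 3 the lowest. The subunits showed the same order of *Smyd1-KO* hearts, as the sums over the 6 genes were 1958, 1584 and 1427 CPM (*Smyd1-KO*) against 1800, 1792 and 1935 CPM (WT). The sign of *Mcm3* turned positive without *Smyd1-KO* heart 3 (0.026), and that of *Mcm6* without *Smyd1-KO* heart 3 (0.074) or WT heart 3 (0.017).

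Ribonucleotide reductase makes deoxynucleotides, and its small subunit RRM2 is the one whose supply follows S phase. *Rrm2* (ENSMUSG00000020649, chr12:24708241-24714146, mm10) was at 193, 140.1 and 121 CPM (*Smyd1-KO*) against 249, 238 and 283 CPM (WT), without overlap. Its log2 fold change of −0.76 ± 0.174 (95% interval −1.17 to −0.35) was the second most negative of the 42 genes. It missed the edgeR threshold at an adjusted *P* of 0.0522. It passed in edgeR with no filter on low counts (0.0217) or with at least 10 counts in every heart (0.0466), and in DESeq2 (0.00137). Without *Smyd1-KO* heart 1, edgeR called it at −0.97 with an adjusted *P* of 0.00734. The large subunit gene *Rrm1* had a log2 fold change of −0.19 (adjusted *P* = 0.281). *Tyms*, encoding thymidylate synthase, was lower without overlap, at −0.38 ± 0.109 (adjusted *P* = 0.0897). *Pcna*, the sliding clamp of the replication fork, was at 319.7, 246 and 229 CPM (*Smyd1-KO*) against 288, 249 and 317 CPM (WT). Its groups overlapped, with a log2 fold change of −0.10 (interval −0.46 to 0.25), and a pseudogene, *Pcna-ps2*, held up to 16.5% as many counts, so the split of reads between them is uncertain.

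None of the genes of G2 and mitosis was called, where edgeR called 4.28% of all tested genes. *Cdk1*, the mitotic kinase, was at 152, 149.8 and 155 CPM (*Smyd1-KO*) against 168, 136 and 151 CPM (WT), for a log2 fold change of 0.0044 (interval −0.21 to 0.22). *Ccnb1*, encoding cyclin B1, stood at 248, 244 and 226 against 248, 245 and 255 CPM, a log2 fold change of −0.058 (interval −0.24 to 0.12). The *Smyd1-KO* hearts fell inside the WT range for *Cdk1* and straddled its lower end for *Ccnb1*. *Ccnb2*, at 89.2, 88.8 and 94.0 against 90.5, 80.5 and 81.9 CPM, had the largest difference of the 4 genes in its group, a log2 fold change of 0.11 (interval −0.074 to 0.28), and *Ccna2*, encoding cyclin A2, had one of −0.038 (interval −0.22 to 0.15). For all 4 genes the interval lay inside the limits of a 1.41-fold difference in either direction. Each is a 95% interval for a single gene from 3 hearts a genotype, so a difference of that size is not excluded.

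*Top2a*, the topoisomerase that resolves chromosomes before anaphase, was at 680.3, 648 and 592 CPM (*Smyd1-KO*) against 549, 654 and 709.8 CPM (WT). *Mki67*, the usual marker of cycling cells, stood at 356, 343 and 352 against 314, 434 and 466 CPM. WT heart 1 was the lowest of the 6 hearts for both genes, so the spread among WT hearts was wider than the distance between the means. Their log2 fold changes were 0.0055 (interval −0.27 to 0.29) and −0.21 (interval −0.55 to 0.14). *Plk1*, the polo-like kinase of mitotic entry, had the largest fold change of its group, at 133, 125 and 119 CPM (*Smyd1-KO*) against 154, 161 and 163 CPM (WT) without overlap. Its adjusted *P* of 0.0473 was under 0.05 and its log2 fold change of −0.34 ± 0.0757 was under the limit. *Aurka* (−0.21) and *Cdc20* (−0.24), encoding Aurora A and an activator of the anaphase-promoting complex, were also lower in every *Smyd1-KO* heart, with adjusted *P*-values of 0.113 and 0.137, so that 3 of the 10 mitosis genes separated by genotype (30.0%, against 31.3% of all tested genes). The log2 fold changes of *Aurkb*, *Bub1*, *Bub1b*, *Birc5* and *Kif11*, genes of the spindle checkpoint and chromosome movement, lay between −0.083 and 0.15, and all 5 overlapped. Over the 14 genes of mitosis and of the A- and B-type cyclins with *Cdk1*, the median was −0.042, the range −0.34 to 0.15, and 12 of the 14 intervals lay within ±0.5. Of all tested genes 30.9% had such intervals, but theirs were wider, with a median half-width of 0.44. It was 0.21 for the mitosis genes and 0.18 for the A- and B-type cyclins with *Cdk1*.

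The 3 *Smyd1-KO* hearts were not alike across roles. For each heart, log2(CPM + 0.5) of a gene was taken relative to the WT mean and the median formed over a role. For the MCM subunits this median was 0.088, −0.22 and −0.37 (*Smyd1-KO*) against −0.034, −0.04 and 0.068 (WT). For the E-type cyclins and *Cdk2* it was −0.38, −0.17 and −0.29 (*Smyd1-KO*) against −0.033, −0.012 and 0.046 (WT). By these medians heart 1 was the highest *Smyd1-KO* heart for the helicase and the lowest for cyclin E with *Cdk2*. The latter median is the value of *Ccne2* alone in all 3 *Smyd1-KO* hearts. Heart 1 held the most *Ccne1*, and its summed CPM for cyclin E with *Cdk2* was the highest of the *Smyd1-KO* hearts, at 174 against 163 and 156. For the E2F factors all 3 *Smyd1-KO* medians (−0.27, −0.22 and −0.36) lay under the WT medians (−0.024, 0.045 and −0.023). This median is the value of *E2f3* alone in all 3 *Smyd1-KO* hearts, and *E2f1*, *E2f2* and *E2f8* overlapped between the genotypes. For the mitosis genes the medians overlapped (−0.028, −0.085 and −0.14 against −0.077, 0.0019 and 0.094). Over all 42 genes the medians were 0.0033, −0.16 and −0.22 (*Smyd1-KO*) against −0.025, −0.011 and 0.04 (WT). *Smyd1-KO* heart 1, which stood apart from hearts 2 and 3 for the helicase genes, was also the *Smyd1-KO* heart with the lowest cardiomyocyte marker sum, and the part of this in the medians was not tested.

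**Figure D3:**
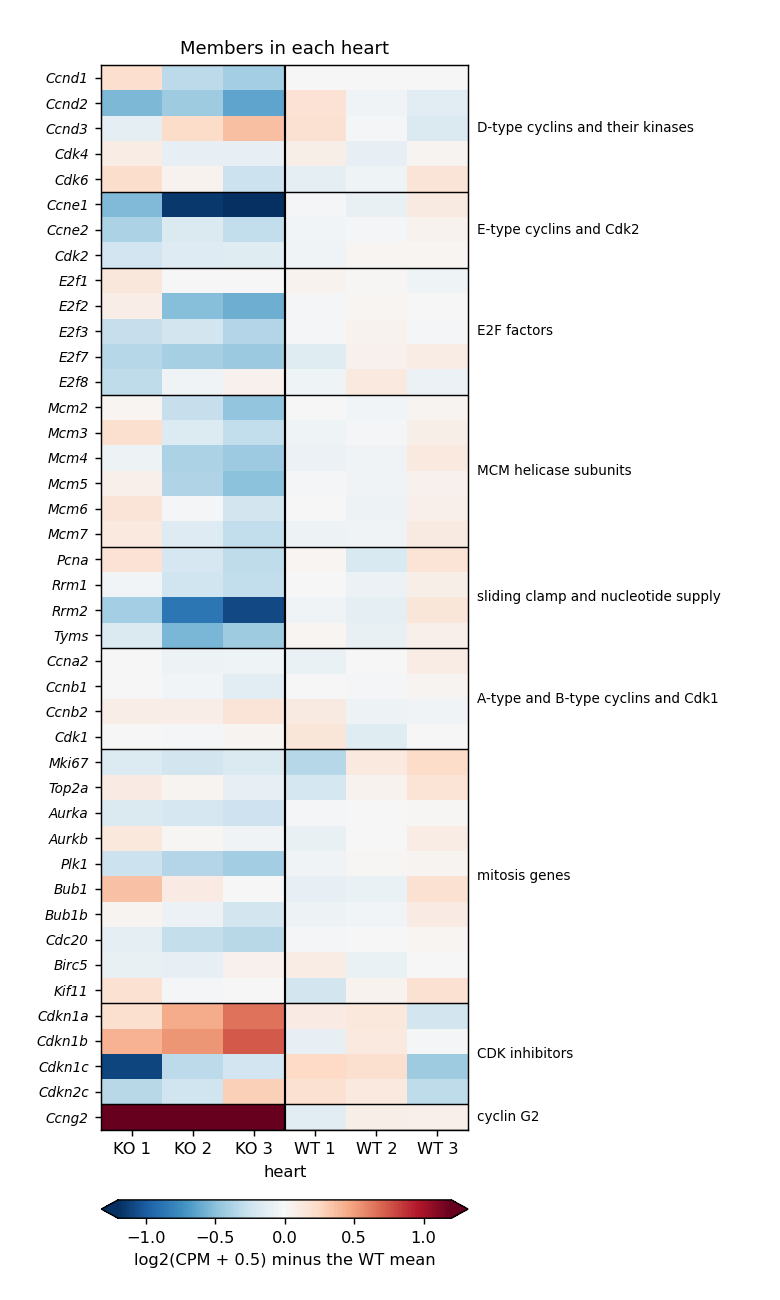
Log2(CPM + 0.5) of each of the 42 genes in each heart relative to the mean of the 3 WT hearts, with genes ordered by role. *Ccng2* is at or beyond the end of the scale (1.2) in all 3 *Smyd1-KO* hearts, *Ccne1* and *Rrm2* are lowest in *Smyd1-KO* hearts 2 and 3, and the rows of *Cdk1* and the A- and B-type cyclins are pale throughout.

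**Figure D4:**
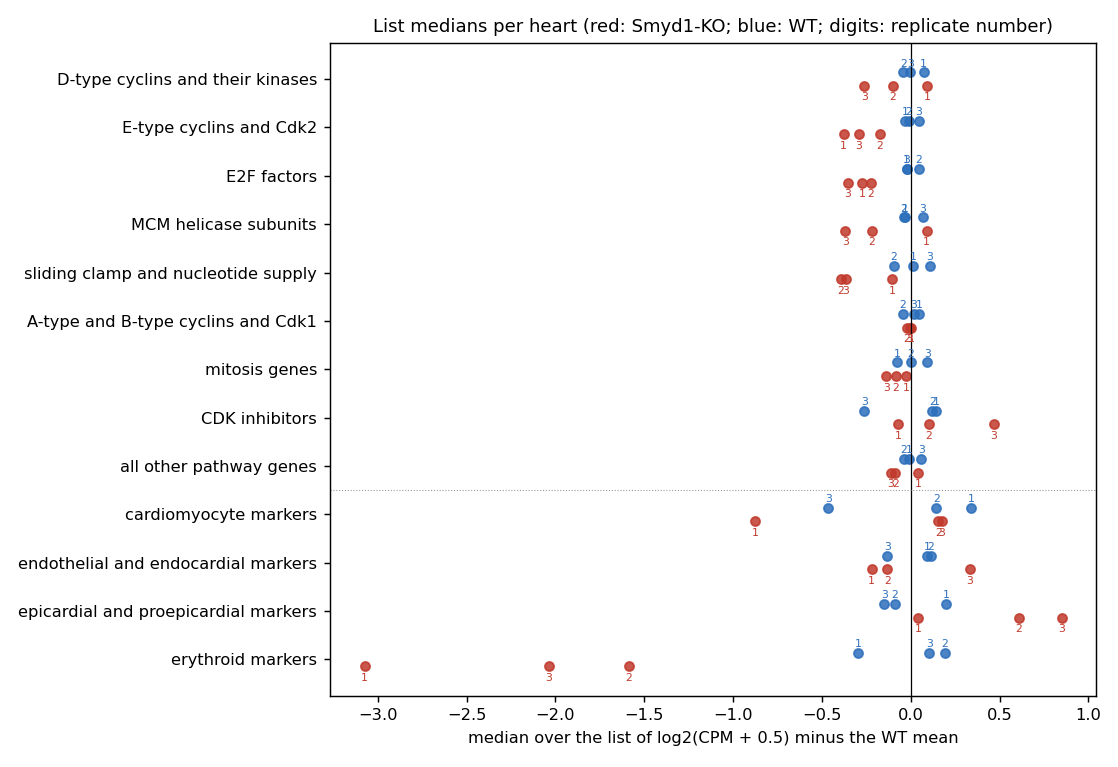
Median over each list of log2(CPM + 0.5) relative to the WT mean, 1 point for each heart, numbered, with *Smyd1-KO* in red, WT in blue and the cell type markers under the dotted line. The MCM medians of *Smyd1-KO* hearts spread from −0.37 to 0.088, and the erythroid medians of *Smyd1-KO* hearts lie far to the left of all other points.

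In WT hearts the 42 genes ranged per kb of exon from 385 CPM for *Cdkn1c* to 0.741 CPM for *Cdkn2c*. *Cdkn1c* was followed by *Cdk4* (176), *Pcna* (119) and *Cdc20* (111), and the ranges of *Pcna* and *Cdc20* overlapped. Of the 41 neighbouring pairs in this order of levels, 29 had overlapping WT ranges, so much of the middle of the order is not resolved. *Ccng2*, *E2f7*, *E2f2*, *Cdkn1a*, *Cdk6* and *Cdkn2c* formed its lower end.

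Promoters of called and uncalled genes are shown because the textbook control of these genes runs through short elements near the start site. RefSeq promoter windows (GRCm38.p6, 250 bases before to 50 after the start) were matched for 35 of the 42 genes. *Ccnd1*, *Ccnd2*, *Ccne2*, *Mcm4*, *Ccna2*, *Cdkn1c* and *Aurkb* had no entry. Searched on both strands were the E2F letters TTGGCGC and TTCCCGC, the cell cycle homology region (CHR) letters TTTGAA, the letters CCAAT and the letters ACGTG of the hypoxia response core. Capitals mark any of these letters in the stretches printed here, which lie upstream of the start site and outside annotated exons. Those of *Cdkn1b* and *Ccne1* belong to called genes and those of *Mki67* and *Cdk1* to mitotic genes that were not called. *Cdkn1b* is on the plus strand at chr6:134920151-134920400, *Ccne1* on the minus strand at chr7:38107535-38107740, *Mki67* on the minus strand at chr7:135716380-135716629 and *Cdk1* on the minus strand at chr10:69352939-69353162, each written 5′ to 3′.
Cdkn1b: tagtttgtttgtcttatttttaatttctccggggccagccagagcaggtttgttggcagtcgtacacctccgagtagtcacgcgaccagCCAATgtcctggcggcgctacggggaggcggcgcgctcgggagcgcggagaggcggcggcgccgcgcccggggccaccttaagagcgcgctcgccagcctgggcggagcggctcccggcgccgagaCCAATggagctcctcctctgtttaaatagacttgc
Ccne1: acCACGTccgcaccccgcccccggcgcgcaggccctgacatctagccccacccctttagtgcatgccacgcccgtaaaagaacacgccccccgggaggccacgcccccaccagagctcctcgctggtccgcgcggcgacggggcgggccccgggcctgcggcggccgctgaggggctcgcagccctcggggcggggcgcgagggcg
Mki67: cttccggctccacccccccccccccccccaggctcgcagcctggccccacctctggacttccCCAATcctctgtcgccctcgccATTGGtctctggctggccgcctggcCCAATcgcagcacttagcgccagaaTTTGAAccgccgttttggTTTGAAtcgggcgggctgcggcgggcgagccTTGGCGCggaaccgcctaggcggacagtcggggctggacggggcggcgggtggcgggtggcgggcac
Cdk1: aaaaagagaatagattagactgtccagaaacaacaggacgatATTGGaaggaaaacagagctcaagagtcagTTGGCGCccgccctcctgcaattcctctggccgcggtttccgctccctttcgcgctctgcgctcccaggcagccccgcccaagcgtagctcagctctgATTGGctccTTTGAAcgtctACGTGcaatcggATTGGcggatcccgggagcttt

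The E2F letters were found in 14 of the 35 genes (40.0%), compared with 7.79% of the 27025 genes with a promoter window and 6.81% of the 32851 windows. They were present in 4 of 5 E2F genes and 4 of 5 MCM genes, in *Mki67* and *Cdk1*, and not in the windows of *Ccne1*, *Rrm2*, *Cdkn1b* or *Ccng2*. The CHR letters occurred in 13 of 35 (37.1%, against 20.2% of genes and 17.9% of windows), including 7 of 9 mitosis genes. The CCAAT letters occurred in 27 of 35 (77.1%, against 41.1% of genes and 37.4% of windows), among them 8 of 9 mitosis genes and all 5 MCM genes matched. The ACGTG letters occurred in 14 of 35 (40.0%, against 21.8% of genes and 19.6% of windows), *Ccne1* among them, and the window of *Ccng2* held none of the searched letters. Log2 fold changes had a median of −0.14 in the 14 genes with the E2F letters (range −0.40 to 0.0044) and −0.036 in the 21 without (range −0.98 to 1.57). With and without the CHR letters the medians were −0.21 and −0.067, with and without CCAAT −0.10 and −0.015, and with and without ACGTG −0.092 and −0.096. These matches describe letters in the windows and were given no test.

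A further 123 cell cycle genes that are not among the 42 were listed by function, and all were tested. By edgeR *Myc* was called higher and *Fen1* lower, 1 gene of 123 in each direction, where 2.86% and 1.42% of all tested genes were called higher and lower. *Myc*, the growth-promoting transcription factor, was at 52.7, 41.6 and 49.4 CPM (*Smyd1-KO*) against 34.7, 31.4 and 34.6 CPM (WT) without overlap, a log2 fold change of 0.51 ± 0.108 (adjusted *P* = 0.0428). *Fen1*, the flap endonuclease that matures Okazaki fragments, stood at 14.2, 13.4 and 12.8 against 18.5, 18.6 and 20.7 CPM, a log2 fold change of −0.52 ± 0.107 (adjusted *P* = 0.0401). Both lay just past the fold limit. Of the 2422 exonic bases of *Fen1*, 1909 are shared with the antisense gene *Gm10143* and 130 with *Tmem258* on the opposite strand, so its counts are uncertain where strand was not used, and the same holds for *Cdc25b* and *Rb1* which share exonic bases with protein-coding genes. *Myc* was lost on leaving out any heart (adjusted *P* 0.0517 to 0.173), and *Fen1* was kept without *Smyd1-KO* heart 1 only, at 0.0399. Without adjustment, 9 were higher and 16 lower at a *P*-value under 0.05 (20.3%, against 25.1% of all tested genes), and the median log2 fold change was −0.034. Of the 123 intervals, 87 lay within ±0.5 (70.7%, against 30.9% of all tested genes). Their median half-width was 0.25, against 0.44 for all tested genes. DESeq2 called *Myc*, *Cdc25b* (0.54 in edgeR), *Rb1* (0.70) and *Plk2* (0.83) higher and *Fen1* and *Trp53inp1* (−0.55) lower. That is 4 of 123 higher and 2 of 123 lower, where DESeq2 called 5.98% of its tested genes higher and 3.31% lower. These are named because the count was small, after their values were seen.

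By function, and with edgeR calls, the 19 other genes of origin licensing had a median of −0.034 and no call. The 42 other genes of G2 and mitosis had a median of −0.047, no call and 37 intervals within ±0.5. That is 88.1%, against 30.9% of all tested genes, whose intervals were wider. Of the 26 other fork, polymerase and nucleotide genes 19 were lower, with a median of −0.14 and *Fen1* as the call. The 16 other genes of the E2F, pocket protein, DREAM and MYC network had a median of 0.0085, with *Myc* as the call. The 20 other cell cycle brakes and p53 targets had a median of 0.11 and no call, with 13 higher and 7 lower. DESeq2 called *Plk2* and *Trp53inp1* among these brakes and *Cdc25b* among the genes of G2 and mitosis, and edgeR called *Plk2* with no filter on low counts (adjusted *P* = 0.0187) or with at least 10 counts in every heart (0.0495).

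**Figure D5:**
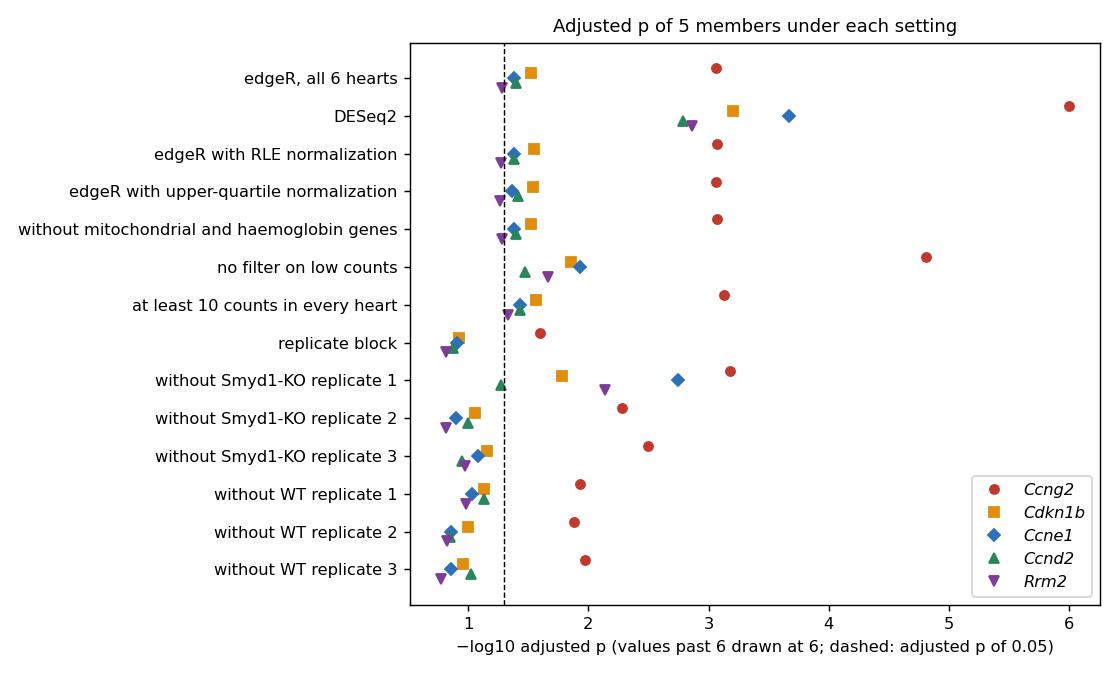
Adjusted *P*-values, as −log10, of 5 genes under the edgeR fit of all 6 hearts and 13 alternatives, with a dashed line at 0.05. *Ccng2* lies past the line in every fit, whereas *Cdkn1b*, *Ccne1*, *Ccnd2* and *Rrm2* lie close to it in the edgeR fit of all 6 hearts and move across it when a heart is left out. Under DESeq2 they lie well past it, at adjusted *P*-values of 0.000216 to 0.00164, as do *Ccne1* (0.00181) and *Rrm2* (0.00734) in edgeR without *Smyd1-KO* heart 1.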

How the data were processed

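RNA of individual E9.5 hearts was sequenced, and samples were grouped by the genotype and numbered by the replicate in their labels (3 *Smyd1-KO*, 3 WT). The authors aligned paired-end reads to mm10 with STAR through the bcbio-nextgen pipeline and deposited raw counts per gene for 54532 genes. The counting step, its strand setting and its annotation are not given in the sources used here. A deposited table of normalized values was not used.

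Counts as deposited were tested with edgeR 4.0.16 (filterByExpr, TMM factors of 0.979 to 1.038, quasi-likelihood F-test, Benjamini-Hochberg adjustment over all 19372 tested genes) in R 4.3.3. DESeq2 1.42.0, the tool of the authors, was an alternative, as were other scalings, other filters and leaving out each heart. CPM are TMM-scaled, and CPM per kb divide by the summed exon length of GENCODE M21. This length joins the exons of all annotated transcripts, so a gene expressed mainly as a short transcript is set too low. No hearts differed by as little as sampling noise, and *P*-values measure the spread between these 6 hearts only. Depth was 48627825 to 64217529 counts per heart, and the biological coefficient of variation was 22.5%. Values in every heart are given for called genes, CDK inhibitors, *Ccng2*, D- and E-type cyclins, usual markers of cycling cells, and the largest and smallest change in each role. The members and lists were chosen with earlier results of these data known. Exons overlap those of a gene on the opposite strand in 15 of the 42 genes (8 with protein-coding genes), and *Ccne1*, *Ccng2* and *Cdkn1b* are not among them.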

Additional observations from a re-analysis of the deposited data

How the results depend on the processing

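The calls among the 42 genes rest on 3 hearts a genotype. DESeq2 called 1749 genes where edgeR called 830, and among the 123 further genes 4 higher and 2 lower (5.98% and 3.31% of its tested genes). With no filter on low counts 2 of these were called higher and 0 lower, and with at least 10 counts in every heart 2 higher. By adjusted *P* alone 2 of the 42 were higher and 4 lower, beside 644 higher and 389 lower of the 19372 tested genes. Leaving out a heart gave 97 (without WT heart 2) to 1256 calls (without *Smyd1-KO* heart 1), with 1 to 2 of the 42 higher and 0 to 3 lower, a median of −0.18 to −0.064, and 0 to 1 further genes higher and 0 to 5 lower. Without *Smyd1-KO* heart 1, *Ccne1*, *Rrm2* and *E2f2* were the 3 lower. The remaining counts stood without *Smyd1-KO* heart 2 at 248 and heart 3 at 344, and without WT heart 1 at 501 and heart 3 at 171. The cause was not tested.

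With the replicate number as a block (replicate block), 59 genes were called, 1 of the 42 higher (*Ccng2*) and 0 lower, and 0 further genes in either direction. Same-numbered hearts, which are different embryos, had correlations of −0.266, −0.007 and −0.271 in their deviations from the genotype means. Differently numbered pairs had −0.197 to 0.374. With deviations taken from the mean of 3 hearts, these values cannot show whether any hearts shared a litter, which the labels do not give.

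Signs turned only for genes near 0. *Cdk6* was −0.0028 under the replicate block and −0.11 to 0.13 when a heart was left out. With a heart left out, the log2 fold change ranged from −0.10 to 0.0089 for *Cdk4*, −0.17 to 0.00077 for *E2f8*, −0.23 to 0.026 for *Mcm3*, −0.11 to 0.074 for *Mcm6*, −0.070 to 0.0085 for *Ccna2*, −0.068 to 0.091 for *Cdk1*, −0.083 to 0.093 for *Top2a*, −0.015 to 0.081 for *Aurkb*, −0.096 to 0.0062 for *Birc5*, −0.048 to 0.15 for *Kif11* and −0.38 to 0.041 for *Cdkn2c*. Scaling by RLE or upper quartile factors, or without mitochondrial and haemoglobin genes, turned no sign and changed no count of calls by over 1.5 times.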
